A study of Mus musculus with 15 samples.

Results

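Heat shock genes encode molecular chaperones, proteins that hold, fold or clear other proteins. Heat shock factor 1 (Hsf1), a transcription factor, switches many of them on when unfolded protein builds up in the cytosol, and it binds heat shock elements, short inverted repeats of GAA, in their promoters. In hepatocytes, which make and secrete large amounts of protein, the constitutive members work all the time, while the inducible HSP70 genes are known for very low expression until the cell is stressed. Described here are 10 genes that are commonly taken as readouts of this response: the HSP70 genes Hspa1a, Hspa1b and Hspa8, their partners Hsph1, Dnajb1 and Bag3, the small heat shock protein gene Hspb1, the HSP90 gene Hsp90aa1, and the mitochondrial chaperonin pair Hspd1 and Hspe1. The genes were chosen by name, with earlier results of these data known, so their counts below are descriptions. Each was measured by every probe set (a group of short probes on the array that reports 1 transcript) whose annotation gives its symbol alone. This found 23 probe sets for 10 of the 18193 genes on the array. Of these, 22 stood off the array background, and each of the 10 genes had at least 1. The probe set on the background was 1433251_at of Hsp90aa1.

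Expression was measured on 15 arrays of primary hepatocytes, liver parenchymal cells taken straight from male C57BL/6 mice. Cells kept in a rotating wall vessel (RWV), a slowly turning chamber where they gather into aggregates, were set against a monolayer attached to a tissue culture dish (TCD). Each vessel was sampled at 4 h and at 24 h, and uncultured cells (t0) were the baseline, with 3 biological replicates in each of the 5 groups. All groups share the strain, the sex and the isolation from liver. The labels name no further agent and no engineered allele, and the age of the mice and the number of mice behind a replicate are not given in the sources used here. Since no label ties a replicate to its own mouse, p-values measure the spread between these samples.

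Every value below is a log2 change from the median of the 3 t0 arrays. The levels themselves are not held in the values, so genes cannot be ranked by abundance, and a gene's signal at t0 could not be placed against the array background. Errors after ± are standard errors of the fitted difference unless an SD is named. A gene was called when the adjusted p of its leading probe set (the one that varied most) was below 0.05 in limma's test. In whole-tissue or whole-culture RNA, fewer cells of a type and less RNA per cell cannot be told apart. The 3 arrays per group limit the precision.

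A few facts of the arrays touch the results. On TCD 4 h replicate 2 the median of the 18 hybridisation controls was 1.08, against -0.73 to 0.18 on the other 14 arrays, and the array received a weight of 0.206 where limma estimated array weights. The t0 arrays spread more in the heat shock genes than elsewhere, with a median SD of 0.80 over the 10 genes and 0.19 over all 12423 genes with a leading probe set. Replicate 2 of t0 was the highest t0 array in 8 of the 10 genes, against 30.7% of all genes. Calls that change without one of these arrays are given with both values. Of the hepatocyte markers, 6 of 6 were measured, and their mean lay between -1.33 and -1.12 on RWV 24 h arrays and between -1.14 and -1.07 on TCD 24 h arrays. At 24 h, limma called some markers of other liver cells lower in RWV than in TCD cells and none higher. They were 2 of 3 cholangiocyte, 1 of 3 stellate cell and fibroblast and 1 of 4 sinusoidal endothelium markers (6.71% of all genes lower). Of the Kupffer cell and macrophage markers 0 of 6 were called, and the vessels overlapped. The median difference of the stellate cell and fibroblast markers was 0.01, so their means below do not describe all 3. The mean of 3 of 4 cholangiocyte markers ran from 0.82 to 1.29 in RWV 24 h and from 2.74 to 3.97 in TCD 24 h, and that of 3 of 5 stellate cell and fibroblast markers from -0.05 to 0.66 in RWV 24 h and from 1.76 to 1.93 in TCD 24 h. The 4 of 6 sinusoidal endothelium markers measured gave means of -1.22 to -0.71 in RWV 24 h and -0.62 to -0.27 in TCD 24 h, and the 6 of 7 Kupffer cell and macrophage markers -0.42 to 1.54 in RWV 24 h and -0.75 to 0.14 in TCD 24 h. For Actb, whose end-to-end difference on the array tracks RNA quality, the log2 value at the 3' end minus that at the 5' end lay between -0.26 and -0.22 on RWV 24 h arrays and between -0.45 and -0.43 on TCD 24 h arrays. For Gapdh, the same difference between the ends lay between -0.063 and -0.055 on RWV 24 h arrays. On TCD 24 h arrays the Gapdh difference lay between -0.050 and -0.015. The part of other cells and of RNA quality in the heat shock results was not tested.

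Promoter windows, from 250 bases before to 50 after the annotated start, were found in RefSeq (GRCm38.p6) for 8 of the 10 genes. The heat shock element was searched on both strands as GAA, TTC and GAA with any 2 bases between neighbours, and matches could overlap. Of the 8 genes, 3 (Hsph1, Hspd1 and Hspe1) held an exact match, and 6 held a match with at most 1 of the 9 fixed letters changed. Over 27025 genes with a window, the shares were 0.662% for an exact match and 8.15% with at most 1 letter changed. Bag3 and Dnajb1 held neither in these windows. The windows below are shown because they carry the matches, which stand in capitals. They belong to Hspa1a at chr17:34972107-34972406 (minus strand), Hspb1 at chr5:135887669-135887968 (plus strand), Hsph1 at chr5:149636266-149636565 (minus strand) and Hspe1 at chr1:55087898-55088197 (plus strand).
Hspa1a: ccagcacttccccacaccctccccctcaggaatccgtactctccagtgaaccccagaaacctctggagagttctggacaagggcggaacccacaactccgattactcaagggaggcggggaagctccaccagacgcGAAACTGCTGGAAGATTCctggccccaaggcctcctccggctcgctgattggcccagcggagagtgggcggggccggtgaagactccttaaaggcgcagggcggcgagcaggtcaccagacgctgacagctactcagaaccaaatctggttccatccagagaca
Hspb1: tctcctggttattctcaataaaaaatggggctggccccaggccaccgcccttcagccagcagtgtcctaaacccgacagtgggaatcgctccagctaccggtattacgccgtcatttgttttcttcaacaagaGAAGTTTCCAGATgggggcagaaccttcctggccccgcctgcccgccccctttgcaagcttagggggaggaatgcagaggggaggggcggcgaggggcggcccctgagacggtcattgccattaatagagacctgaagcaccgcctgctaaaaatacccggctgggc
Hsph1: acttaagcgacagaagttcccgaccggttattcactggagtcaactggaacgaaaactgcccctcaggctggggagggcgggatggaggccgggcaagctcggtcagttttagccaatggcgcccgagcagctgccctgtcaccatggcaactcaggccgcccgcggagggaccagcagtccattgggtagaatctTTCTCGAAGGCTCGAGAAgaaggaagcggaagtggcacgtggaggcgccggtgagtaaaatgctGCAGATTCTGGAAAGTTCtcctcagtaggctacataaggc
Hspe1: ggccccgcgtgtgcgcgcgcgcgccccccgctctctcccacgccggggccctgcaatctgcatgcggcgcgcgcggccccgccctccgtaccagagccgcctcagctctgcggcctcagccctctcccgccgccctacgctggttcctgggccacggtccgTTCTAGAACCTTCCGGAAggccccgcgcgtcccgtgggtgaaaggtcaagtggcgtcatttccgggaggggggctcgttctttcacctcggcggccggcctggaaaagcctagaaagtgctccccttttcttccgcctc
In Hspa1a, 2 overlapping matches lay 114 to 97 bases before the start, each with 1 letter changed. The window of Hspa1b has the same matches at the same place and differs from that of Hspa1a at 4 of 300 bases. In Hspe1, 2 exact matches overlapped 89 to 72 bases before the start. Hspd1 lies head to head with Hspe1, and its window on the opposite strand (chr1:55087883-55088182) holds the same bases 144 to 127 before its own start. The other window of Hspd1 (chr1:55088194-55088493) holds no match. Hsph1 held 2 overlapping near matches 54 to 37 bases before its start. After the start, a near match at 10 to 22 bases overlapped an exact one at 15 to 27 bases. A match is a string of letters, and whether Hsf1 or another factor bound there was not measured.

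**Figure D1:**
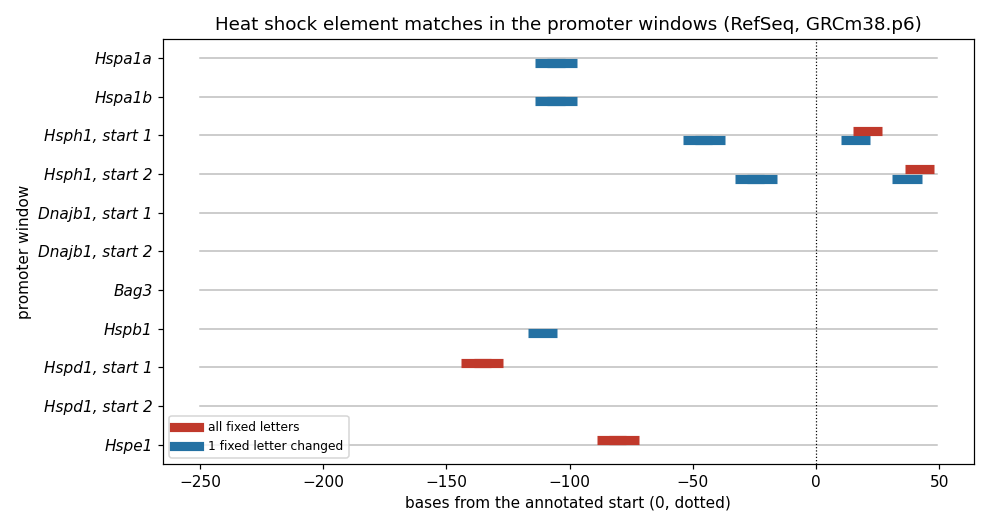
Matches to the heat shock element in the 11 promoter windows of 8 genes, by distance in bases from the annotated start (0, dotted line). Red bars match all fixed letters and blue bars have 1 letter changed. A match is present in 7 of the 11 windows. Hspe1 and the first window of Hspd1 have exact matches upstream of the start. The windows of Bag3 and Dnajb1 and the second window of Hspd1 have none.

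Counted over the 10 genes, more were called between times than between vessels. Between 4 h and 24 h, 7 of 10 rose in RWV cells and none fell, while 26.1% of all genes rose and 14.9% fell. In TCD cells 6 of 10 rose and none fell, while 35.8% of all genes rose and 19.4% fell. The median change of the 10 was 1.52 in RWV cells and 1.27 in TCD cells, and over all genes it was 0.04 in RWV cells and 0.06 in TCD cells. By probe set, 14 of 22 were called in RWV cells (36.2% of all probe sets) and 16 of 22 in TCD cells (48.3%). Against t0 at 24 h, 6 of 10 genes were higher in RWV cells and none lower (30.5% of all genes higher, 19.1% lower), and 4 of 10 were higher in TCD cells and none lower (32.6% higher, 23.3% lower). By probe set these were 14 of 22 in RWV cells (43.8% of all probe sets) and 12 of 22 in TCD cells (49.9%), 1 of the 12 lower. The 4 comparisons with t0 share the t0 arrays, and each array of 4 h or 24 h also enters a comparison between vessels.

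Between vessels, 1 gene of 10 (Hspa1b) was higher in RWV than in TCD cells at 4 h and none lower (5.30% of all genes higher, 0.660% lower). At 24 h, 2 of 10 (Hspa8 and Hspe1) were higher and none lower (8.27% of all genes higher, 6.71% lower). The median difference of the 10 was 0.27 at both times, and over all genes it was -0.01 at 4 h and -0.0010 at 24 h. By probe set, 3 of 22 were called at 4 h (5.06% of all probe sets) and 3 of 22 at 24 h (13.3%). For the interaction, the change of the vessel difference between 4 h and 24 h, limma called 0 of 10 genes (4.77% of all genes higher, 7.33% lower) and 0 of 22 probe sets (10.3% of all probe sets), with 1 gene and 2 probe sets, both of Hspe1, at an unadjusted p below 0.05. Against t0 at 4 h, 1 of 10 genes (Bag3) was higher in RWV cells and none lower (14.9% of all genes higher, 14.2% lower), and 2 of 10 (Hspa1b and Hspa8) were lower in TCD cells and none higher (15.4% lower, 9.31% higher). By probe set these were 3 of 22 in RWV cells (25.8% of all probe sets) and 5 of 22 in TCD cells (21.2%). Without t0 replicate 2, 2 of 10 genes were higher in RWV than in TCD cells at 4 h and none lower (5.51% of all genes higher, 0.716% lower), and 3 of 10 were higher at 24 h and none lower (8.28% higher, 6.86% lower). Against t0 without that array, 3 of 10 were higher and none lower in RWV cells at 4 h (13.8% of all genes higher, 12.1% lower), and 1 was higher and 1 lower in TCD cells at 4 h (8.65% higher, 12.6% lower). In TCD cells at 24 h, 5 of 10 were then higher than t0 and 1 lower (30.9% of all genes higher, 22.7% lower).

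Scaling changes the direction of some of these genes. When each array was centred on the median of 7 reference genes, all genes moved by the same amount in a comparison: -0.37 between RWV 24 h and RWV 4 h, -0.98 between TCD 24 h and TCD 4 h, -0.74 for RWV 24 h and -1.21 for TCD 24 h against t0, and 0.47 between RWV and TCD at 24 h. The reference genes were those measured of Hprt, Tbp, Ppia, Gusb, Polr2a, Sdha, Ywhaz and Rplp0, each by its most variable probe set. Changes relative to the other genes stay as given. For TCD 24 h against t0 the median over all genes was -0.01 as deposited and -1.22 after centring. Whether the reference genes or the other genes moved was not tested, so a centred direction is relative to these 7 genes. On that scale 6 of 10 genes rose and none fell between 4 h and 24 h in RWV cells (16.3% of all genes rose, 38.3% fell), where Hspe1 turned to -0.041. In TCD cells 3 rose (Hspa1a, Hspa1b and Hspb1) and 2 fell (Hspd1 and Hspe1, at -0.96 and -1.04), while 13.1% of all genes rose and 60.8% fell. Against t0 at 24 h, 3 were higher and 2 lower in RWV cells (14.03% of all genes higher, 56.6% lower), with Hspd1 at -0.69 and Hspe1 at -0.52, and 2 were higher and 3 lower in TCD cells (11.4% higher, 69.2% lower). Between vessels at 24 h, 7 of 10 were higher in RWV cells and none lower, in a comparison where centring made 50.7% of all genes higher and 3.47% lower. Against t0 at 4 h, 4 of 10 were lower and none higher in RWV cells (51.3% of all genes lower, 11.04% higher), and 4 were lower and none higher in TCD cells (29.5% lower, 7.28% higher).

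Hspa1a had the largest change from t0 of the 10 genes in RWV cells at 24 h. Hspa1a and Hspa1b encode almost the same protein, the HSP70 that cells make under stress, and as near-identical copies they may share probes, so which copy a probe set reports is uncertain. In RWV cells Hspa1a had risen 51.0-fold over t0 by 24 h, and in TCD cells 11.03-fold. Hspa1b was 5.23-fold above t0 in RWV cells at 24 h (8.52-fold without t0 replicate 2, 3.37-fold and not called without t0 replicate 1) and had fallen 6.25-fold below t0 in TCD cells at 4 h (3.84-fold and not called without t0 replicate 2, 9.70-fold without t0 replicate 1).

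Hspa1a (probe set 1452388_at) stood at 0.03, -0.01 and 0.00 on the t0 arrays. At 4 h it read 4.14, 0.06 and 1.99 in RWV cells, against -0.29, 0.01 and -1.73 in TCD cells. At 24 h it read 6.06, 4.90 and 6.08 in RWV cells, against 2.32, 3.65 and 4.45 in TCD cells. All 6 arrays of 24 h lay above every t0 array, and the 3 RWV 24 h arrays lay above the 3 TCD 24 h arrays. At 4 h the RWV arrays also lay above the TCD arrays, but RWV replicate 2 was barely above the highest of them. The change over t0 at 24 h was 5.67 ± 0.87 in RWV cells (adjusted p = 0.000172) and 3.46 ± 0.87 in TCD cells (adjusted p = 0.00487). Between 4 h and 24 h Hspa1a rose by 3.61 ± 0.87 in RWV cells (adjusted p = 0.00566) and by 4.14 ± 0.87 in TCD cells (adjusted p = 0.00159). These 4 calls held in each of the 10 alternative analyses and when any 1 of the 15 arrays was left out, although the RWV rise was 4.65 without RWV 4 h replicate 1 and 2.61 without RWV 4 h replicate 2.

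The RWV to TCD difference of Hspa1a was 2.74 ± 0.87 at 4 h (adjusted p = 0.1003) and 2.21 ± 0.87 at 24 h (adjusted p = 0.126), and neither was called. The 95% interval at 24 h ran from 0.32 to 4.10. Without RWV 4 h replicate 2, the array with a value near t0, the 4 h difference was 3.74 (adjusted p = 0.0277), and over the 25 alternatives and left-out arrays its adjusted p ran from 0.0252 to 0.359. Without that array the 4 h change over t0 in RWV cells, 2.06 ± 0.87 with all arrays (adjusted p = 0.106), was 3.06 and was called.

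Hspa1b (probe set 1427126_at) varied widely at t0, at -1.13, 1.54 and 0.00. Its 4 h values were 1.35, -0.37 and 0.73 in RWV cells, against -2.01, -4.17 and -1.34 in TCD cells. Its 24 h values were 2.65, 2.24 and 2.69 in RWV cells, against -0.25, 0.87 and 1.09 in TCD cells. The vessels did not overlap at either time, and the TCD 4 h cells were the lowest group, below all 3 t0 arrays. At 4 h Hspa1b was 3.08 ± 0.78 higher in RWV than in TCD cells (8.44-fold, adjusted p = 0.0426), and its other 2 probe sets gave 3.07 and 2.78, both called. At 24 h the difference was 1.96 ± 0.78 (adjusted p = 0.131, 95% interval 0.26 to 3.65) and was not called. The 4 h call was lost in 3 of the 10 alternatives and when any of 12 of the 15 arrays was left out (adjusted p of these 12 from 0.052 to 0.142), and the adjusted p was 0.0551 with the replicate number as a block. Without TCD 4 h replicate 2, the lowest array, the difference was 2.25 (adjusted p = 0.132), and without t0 replicate 2 it kept its call.

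Against t0, Hspa1b fell by 2.64 ± 0.78 in TCD cells at 4 h (adjusted p = 0.0294), a call that was lost without TCD 4 h replicate 2 (-1.81, adjusted p = 0.106), without t0 replicate 2 (-1.94, adjusted p = 0.115) and without t0 replicate 3 (-2.71, adjusted p = 0.0606). In RWV cells at 24 h it was 2.39 ± 0.78 above t0 (adjusted p = 0.0249), and the call was lost when RWV 24 h replicate 1 or 3 or t0 replicate 1 or 3 was left out (adjusted p up to 0.106). Between 4 h and 24 h it rose by 3.07 ± 0.78 in TCD cells (adjusted p = 0.00554), a call kept in every alternative and with each array left out (2.24 without TCD 4 h replicate 2). In RWV cells the change between the times was 1.95 ± 0.78 (adjusted p = 0.0701), and it was called without TCD 4 h replicate 2 (adjusted p = 0.0304) or t0 replicate 2 (adjusted p = 0.0465).

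Hspa8, the constitutive HSP70 that folds new proteins and uncoats clathrin vesicles, was read by 4 probe sets that did not give 1 answer. Its leading probe set, 1431182_at, read 0.00, -1.36 and 0.78 at t0. The 4 h arrays gave -0.92, -0.91 and -0.18 in RWV cells, against -1.96, -2.25 and -2.19 in TCD cells. The 24 h arrays gave 0.64, 0.57 and 1.71 in RWV cells, against -1.59, -0.87 and -0.53 in TCD cells. By this probe set the RWV arrays lay above the TCD arrays at both times. The difference was 1.46 ± 0.49 at 4 h (adjusted p = 0.119, and 0.0438 without t0 replicate 2) and 1.97 ± 0.49 at 24 h (adjusted p = 0.0185). The other 3 probe sets gave -0.27, -0.15 and -0.21 at 24 h, none called, so a difference of Hspa8 between vessels rests on 1 probe set. Of those 3, 1420622_a_at varied most, with 0.34, 0.53 and 0.24 in RWV 24 h cells, against 0.70, 0.70 and 0.51 in TCD 24 h cells. The call of the leading probe set was lost without TCD 24 h replicate 1 (1.68, adjusted p = 0.0686) and without RWV 24 h replicate 3 (1.61, adjusted p = 0.0785).

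Between 4 h and 24 h in RWV cells all 4 rose, by 0.59 to 1.65. In TCD cells the 3 others rose by 0.89 to 1.36, while the leading one gave 1.13 ± 0.49 (adjusted p = 0.0732). That last value was called without TCD 24 h replicate 1 (1.43, adjusted p = 0.0487), t0 replicate 2 (adjusted p = 0.0234) or t0 replicate 3 (adjusted p = 0.0407), and with the replicate block (adjusted p = 0.027). The RWV rise of the leading probe set, 1.65 ± 0.49 (adjusted p = 0.0185), was not called without RWV 4 h replicate 1 (1.52), RWV 4 h replicate 2 (1.53) or RWV 24 h replicate 3 (1.28). At 4 h in TCD cells Hspa8 was below t0 by its leading probe set, which fell by 1.94 ± 0.49 (adjusted p = 0.0134), and by 1420622_a_at, which fell by 0.79 (adjusted p = 0.00997), while the other 2 probe sets were not called. From t0 to 24 h in TCD cells the probe sets differed in direction. The leading one was at -0.80 (adjusted p = 0.196), and at -1.39 and called lower without t0 replicate 2 (adjusted p = 0.015), while the other 3 were called higher, by 0.57, 0.75 and 0.63. In RWV cells at 24 h the leading one was 1.17 above t0 (adjusted p = 0.0711), called without t0 replicate 3 (1.66, adjusted p = 0.0137).

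**Figure D2:**
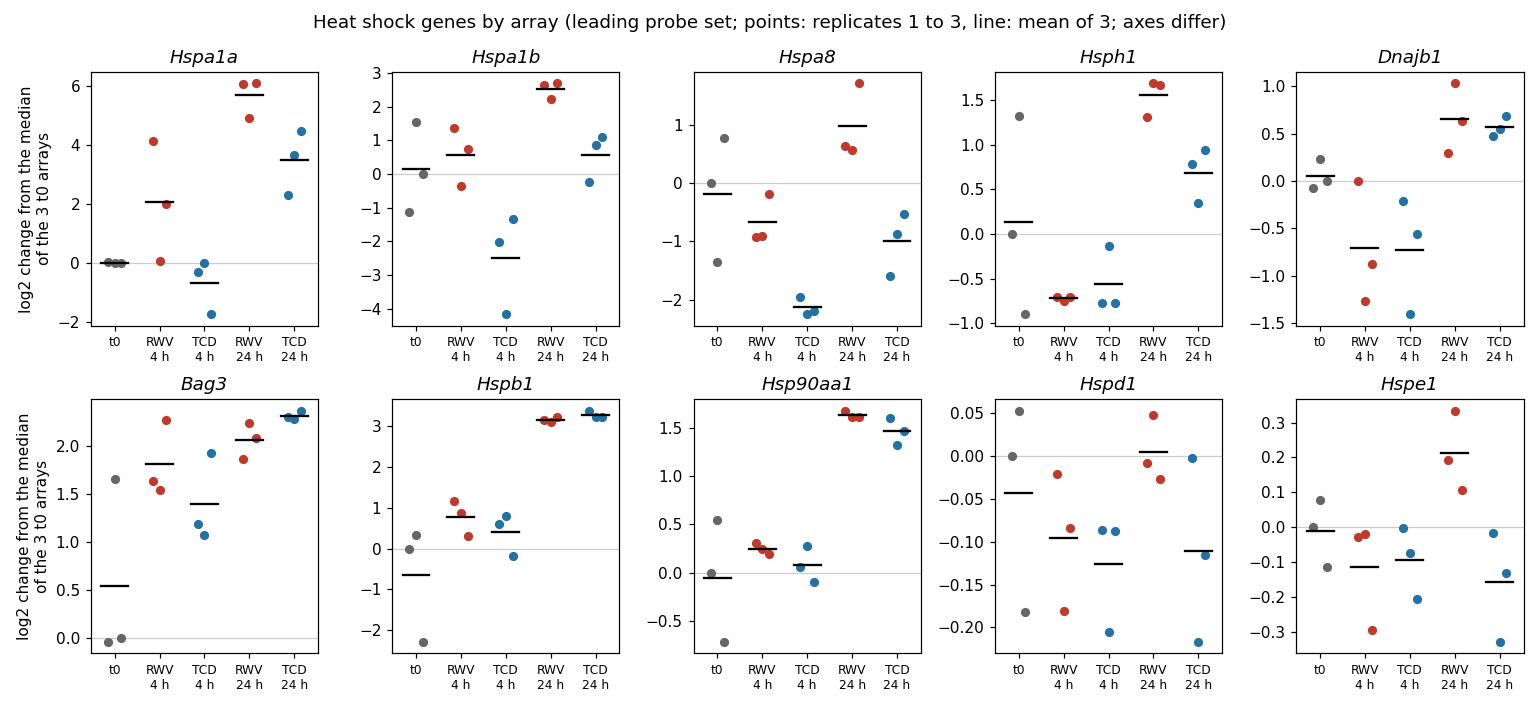
Values of the 10 genes by array (points, replicates 1 to 3 from left to right; line, mean), as log2 change from the median of the 3 t0 arrays, with a scale of its own in each panel. Hspa1a and Hspa1b are highest in RWV 24 h cells, Hspb1 and Hsp90aa1 stand at similar values in both vessels at 24 h, and Hspd1 stays between -0.22 and 0.05 on all 15 arrays.

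Of the partners of HSP70, Hsph1 and Dnajb1 were called higher at 24 h than at 4 h in both vessels. Bag3, already above t0 at 4 h in RWV cells, was not called between the times in either vessel with all arrays. In TCD cells its change was 0.92, and it was called without t0 replicate 2 or TCD 4 h replicate 3. Hsph1 encodes HSP110, which exchanges nucleotide on HSP70 and helps dissolve aggregates. Dnajb1 encodes an HSP40 that delivers substrates and stimulates the HSP70 ATPase. Bag3 encodes a cochaperone that links HSP70 clients to autophagy.

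Hsph1 (1423566_a_at) read 0.00, 1.32 and -0.90 at t0. After 4 h the values were -0.70, -0.75 and -0.70 in RWV cells, against -0.78, -0.13 and -0.78 in TCD cells. After 24 h the values were 1.31, 1.69 and 1.68 in RWV cells, against 0.79, 0.34 and 0.94 in TCD cells. All 6 arrays of 24 h lay above all 6 of 4 h, and at 24 h the vessels did not overlap. Hsph1 rose by 2.28 ± 0.42 between 4 h and 24 h in RWV cells (4.85-fold, adjusted p = 0.000956) and by 1.25 ± 0.42 in TCD cells (2.38-fold, adjusted p = 0.0259). The RWV call was kept with every array left out, and the TCD call was lost without TCD 4 h replicate 1 or 3 or TCD 24 h replicate 1 or 3 (1.13 to 1.20, adjusted p 0.068 to 0.0846). The difference of these 2 rises was 1.03 ± 0.59 (adjusted p = 0.307) and was called in 2 of the alternatives. At 24 h the RWV to TCD difference was 0.87 ± 0.42 (adjusted p = 0.225, 95% interval -0.04 to 1.78), and without t0 replicate 2 it was called (adjusted p = 0.0428). Against t0, Hsph1 was 1.42 ± 0.42 higher in RWV cells at 24 h (adjusted p = 0.0151), a call lost without t0 replicate 3 (0.90, adjusted p = 0.0538), and the change was 2.01 without t0 replicate 2. At 4 h the change from t0 was -0.86 in RWV cells and -0.70 in TCD cells, neither called, and without t0 replicate 3 it was -1.38 (adjusted p = 0.0125) in RWV cells and -1.22 (adjusted p = 0.0264) in TCD cells. For TCD cells at 24 h the change was 0.55 ± 0.42 (adjusted p = 0.307), and without t0 replicate 2 it was 1.14 (adjusted p = 0.00544).

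Dnajb1 (1416755_at) read -0.08, 0.23 and 0.00 at t0. At 4 h the gene stood at 0.00, -1.26 and -0.87 in RWV cells, against -0.21, -1.41 and -0.56 in TCD cells. At 24 h the gene stood at 0.30, 1.03 and 0.64 in RWV cells, against 0.47, 0.55 and 0.68 in TCD cells. The vessels overlapped at both times, and all 6 arrays of 24 h lay above those of 4 h. The rise between the times was 1.37 ± 0.33 in RWV cells (adjusted p = 0.00649) and 1.29 ± 0.33 in TCD cells (adjusted p = 0.00647). The RWV to TCD difference at 24 h was 0.09 ± 0.33, with a 95% interval of -0.64 to 0.82. The other probe set of Dnajb1, 1416756_at, gave smaller changes between the times, 0.61 in RWV cells (not called) and 0.74 in TCD cells (called), and was above t0 at 24 h by 0.97 in RWV cells and 1.12 in TCD cells, both called. By the leading probe set the changes from t0 at 24 h were 0.60 in RWV cells and 0.52 in TCD cells, neither called. At 4 h in RWV cells Dnajb1 was at -0.76 against t0 (adjusted p = 0.122), and at -1.12 without RWV 4 h replicate 1 (adjusted p = 0.0236).

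Bag3 (1422452_at) read -0.04, 1.65 and 0.00 at t0. At 4 h it read 1.63, 1.54 and 2.27 in RWV cells, against 1.18, 1.07 and 1.92 in TCD cells. At 24 h it read 1.86, 2.24 and 2.08 in RWV cells, against 2.30, 2.28 and 2.37 in TCD cells. Replicate 2 of t0 lay among the cultured arrays, while the other 2 t0 arrays lay below all 12 of them. Against t0, Bag3 was 1.27 ± 0.39 higher in RWV cells at 4 h (2.42-fold, adjusted p = 0.0311). It was higher by 1.52 ± 0.39 in RWV cells (adjusted p = 0.0069) and by 1.78 ± 0.39 in TCD cells (adjusted p = 0.00209) at 24 h. The RWV call at 24 h was lost in a fit of only the groups compared and after centring on reference genes (0.78). The TCD call at 24 h was lost after centring (0.56, adjusted p = 0.19). In TCD cells at 4 h the change was 0.85 ± 0.39 (adjusted p = 0.156), and without t0 replicate 2 it was 1.41 (adjusted p = 0.00284). The RWV 4 h call was lost without RWV 4 h replicate 1 or 3 or t0 replicate 1 or 3 (adjusted p up to 0.12), and without t0 replicate 2 the change was 1.83 (adjusted p = 0.000435). That call was also lost without the background filter, with only the groups compared and after centring. The change between 4 h and 24 h was 0.25 ± 0.39 in RWV cells and 0.92 ± 0.39 in TCD cells (adjusted p = 0.0706), the second called without TCD 4 h replicate 3 (1.19, adjusted p = 0.0373) or t0 replicate 2 (adjusted p = 0.006).

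On the deposited scale, Hspb1 and Hsp90aa1 rose in both vessels to almost the same value at 24 h. Hspb1 encodes HSP27, a small heat shock protein that holds unfolded proteins and is tied to actin dynamics. Hsp90aa1 encodes the inducible HSP90, which matures kinases and steroid receptors. Hspb1 was 13.9-fold above t0 in RWV cells and 15.04-fold above in TCD cells at 24 h, and without t0 replicate 3, its lowest array, 7.90-fold above in RWV cells and 8.57-fold above in TCD cells.

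Hspb1 (1425964_x_at) read 0.00, 0.33 and -2.27 at t0. Its 4 h values were 1.15, 0.88 and 0.30 in RWV cells, against 0.61, 0.79 and -0.19 in TCD cells. Its 24 h values were 3.13, 3.09 and 3.22 in RWV cells, against 3.37, 3.21 and 3.21 in TCD cells. The vessels overlapped at both times, and all 6 arrays of 24 h lay far above every other array. Hspb1 rose between 4 h and 24 h by 2.37 ± 0.53 in RWV cells (adjusted p = 0.00367) and by 2.86 ± 0.53 in TCD cells (adjusted p = 0.000679). Over t0 it was 3.80 ± 0.53 higher in RWV cells (adjusted p = 8.69e-05) and 3.91 ± 0.53 higher in TCD cells (adjusted p = 4.82e-05) at 24 h. These 4 calls held in every alternative and with each array left out. The RWV to TCD difference at 24 h was -0.12, with a 95% interval of -1.27 to 1.04. At 4 h the change from t0 was 1.43 ± 0.53 in RWV cells (adjusted p = 0.0696), and it was called with the replicate block (adjusted p = 0.0339) or without t0 replicate 2 (1.91, adjusted p = 0.0223).

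Hsp90aa1 (1437497_a_at) read 0.00, 0.54 and -0.71 at t0. The 4 h arrays gave 0.31, 0.24 and 0.19 in RWV cells, against 0.06, 0.27 and -0.10 in TCD cells. The 24 h arrays gave 1.67, 1.61 and 1.61 in RWV cells, against 1.60, 1.32 and 1.46 in TCD cells. The 24 h arrays lay above all others, and at 24 h the lowest RWV array barely exceeded the highest TCD array. The rise between the times was 1.39 ± 0.23 in RWV cells (adjusted p = 0.000502) and 1.38 ± 0.23 in TCD cells (adjusted p = 0.000327). Over t0 at 24 h Hsp90aa1 was higher by 1.69 ± 0.23 in RWV cells (adjusted p = 7.67e-05) and by 1.52 ± 0.23 in TCD cells (adjusted p = 0.000133). At 4 h its change from t0 in RWV cells was 0.30 ± 0.23 (adjusted p = 0.393), and without t0 replicate 2 it was 0.60 and called (adjusted p = 0.033). The RWV to TCD difference at 24 h was 0.17 ± 0.23, with a 95% interval of -0.33 to 0.68. After centring on reference genes this difference was 0.65 and called (adjusted p = 0.0278), where 50.7% of all genes were higher. Centring also lost both TCD calls, at 0.40 between the times (adjusted p = 0.121) and 0.30 over t0 (adjusted p = 0.231). Both RWV calls were kept in all 10 alternatives. Of its other 3 probe sets off the background, 2 rose in both vessels between 4 h and 24 h, by 0.87 to 1.29, and 1441827_x_at was not called in either vessel.

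Hspd1 and Hspe1 encode the mitochondrial chaperonin HSP60 and its lid, HSP10, which fold imported proteins in the matrix. Over t0 at 24 h, neither was called by its leading probe set in either vessel. Hspd1 (1426351_at) lay between -0.22 and 0.05 on all 15 arrays, and none of its 9 comparisons was called by limma, with 0 at an unadjusted p below 0.05. Its change over t0 at 24 h was 0.05 in RWV cells (95% interval -0.14 to 0.23) and -0.07 in TCD cells (95% interval -0.25 to 0.12).

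Hspe1 (1422579_at) read 0.00, 0.08 and -0.12 at t0. After 4 h the values were -0.03, -0.02 and -0.30 in RWV cells, against 0.00, -0.07 and -0.21 in TCD cells. After 24 h the values were 0.19, 0.33 and 0.11 in RWV cells, against -0.02, -0.33 and -0.13 in TCD cells. The RWV arrays lay above the TCD arrays at 24 h and overlapped them at 4 h. The 24 h difference was 0.37 ± 0.11 (1.29-fold, adjusted p = 0.0449), and the other probe set, 1450668_s_at, gave 0.35 ± 0.09 (adjusted p = 0.0216). Against t0 at 24 h that probe set was at -0.04 in RWV cells and fell by 0.38 in TCD cells (adjusted p = 0.0028). The call of the leading probe set was lost when any of 9 of the 15 arrays was left out (adjusted p of these 9 from 0.0524 to 0.179), among them TCD 24 h replicate 2 (0.29) and RWV 24 h replicate 2 (0.31). The rise between 4 h and 24 h in RWV cells, 0.33 ± 0.11 (adjusted p = 0.0351), was lost without RWV 4 h replicate 3 (0.24) or RWV 24 h replicate 1 (0.34) or 2 (0.27). The difference of the 24 h and 4 h vessel differences was 0.39 ± 0.16 (adjusted p = 0.136).

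**Figure D3:**
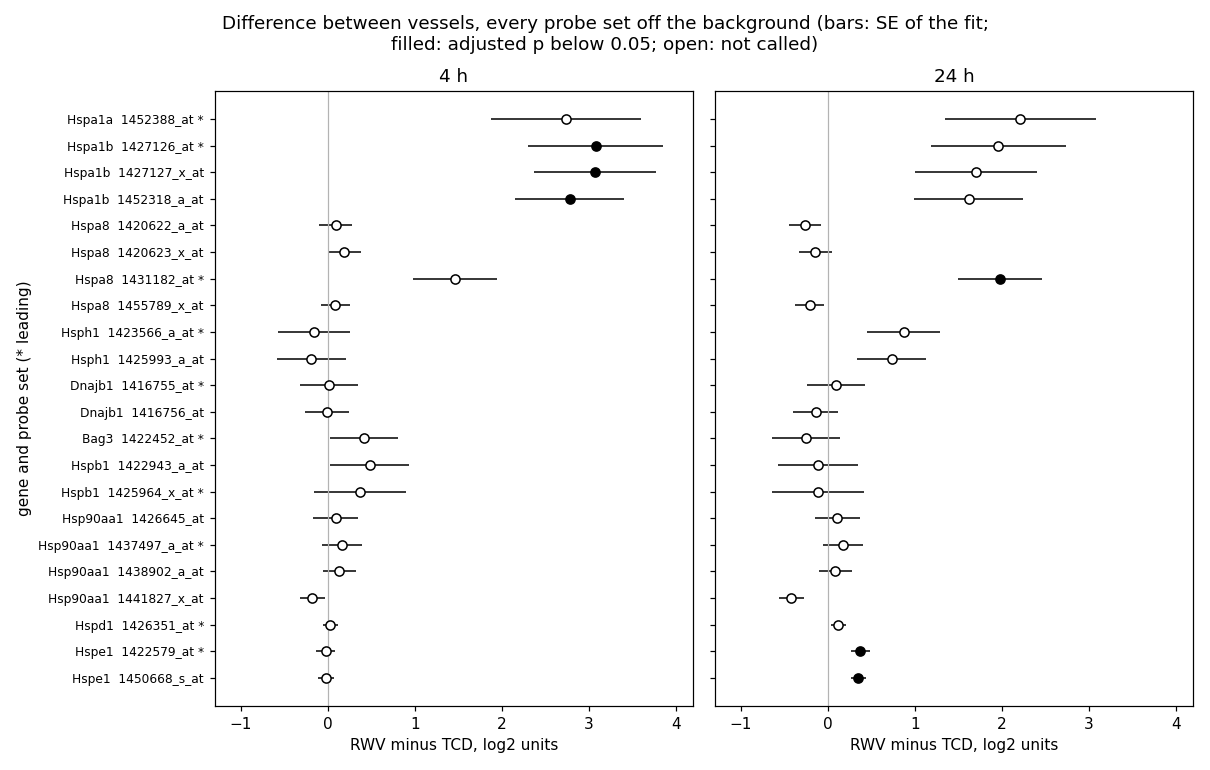
RWV minus TCD at 4 h and at 24 h for the 22 probe sets off the background (points, fitted log2 difference; bars, standard error; filled, adjusted p below 0.05). Filled points are the 3 probe sets of Hspa1b at 4 h, and the leading probe set of Hspa8 and both of Hspe1 at 24 h. The other 3 probe sets of Hspa8 lie near 0.

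The rest of the chaperone network was set beside these genes in 8 lists written by function, of which 52 genes were measured. In RWV cells 30 of 52 rose and 8 fell between 4 h and 24 h (26.1% of all genes rose, 14.9% fell), with a median of 0.81. In TCD cells it was also 30 and 8 (35.8% of all genes rose, 19.4% fell), with a median of 0.72. Against t0 at 24 h, 26 were higher and 5 lower in RWV cells (30.5% of all genes higher, 19.1% lower), and 28 were higher and 5 lower in TCD cells (32.6% higher, 23.3% lower). After centring on reference genes, 29 of the 30 that rose in RWV cells stayed above 0 and 18 of the 30 in TCD cells, and against t0 at 24 h 22 of the 26 in RWV cells and 13 of the 28 in TCD cells. Hsf1 itself had no probe set that names it alone and was not measured here.

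The cytosolic chaperonin, a ring that folds actin and tubulin, rose as a whole. All 8 subunits measured rose between 4 h and 24 h in both vessels (26.1% of all genes rose in RWV cells, 35.8% in TCD cells). The median was 1.15 in RWV cells and 1.18 in TCD cells. In TCD cells 2 of the 8, Cct3 and Cct7 (named after their values were seen), turned below 0 after centring on reference genes. Cct4 was 1.49 above t0 in RWV cells and 1.55 above t0 in TCD cells at 24 h, and Cct5 was 1.46 above t0 in RWV cells. No subunit was called by limma between vessels at either time, and 0 of 8 had an unadjusted p below 0.05. Mitochondrial chaperones and proteases did not move as a whole. Between 4 h and 24 h 2 of 8 rose and 2 fell in RWV cells (26.1% of all genes rose, 14.9% fell), so the rises were near the share of all genes. In TCD cells 2 rose and 4 fell (35.8% of all genes rose, 19.4% fell). After centring on reference genes the 2 that rose in TCD cells (Hspa9 and Lonp1) turned below 0. At 24 h Lonp1, a matrix protease, was above t0 by 1.35 in RWV cells and 1.13 in TCD cells (below 0 after centring), and Trap1, the mitochondrial HSP90, was below t0 by -0.95 in RWV cells and -1.38 in TCD cells.

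Regulators of the response moved with time too. All 3 measured (Hsf2, Hsf4 and Hsbp1) rose between 4 h and 24 h in both vessels (26.1% of all genes rose in RWV cells, 35.8% in TCD cells). After centring on reference genes all 3 turned below 0 in TCD cells. Hsf2, a transcription factor that can pair with Hsf1, was below t0 at 4 h, by -0.97 in RWV cells and -1.46 in TCD cells, and rose by 1.04 in RWV cells and 0.74 in TCD cells between 4 h and 24 h. At 24 h it was 0.80 ± 0.17 higher in RWV than in TCD cells (adjusted p = 0.00969). Hsbp1, which binds and restrains Hsf1, was 0.25 higher in RWV cells at 24 h.

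Of the HSP90 list, 6 of 8 rose and 1 fell between 4 h and 24 h in RWV cells (26.1% of all genes rose, 14.9% fell). In TCD cells 4 of 8 rose and none fell (35.8% of all genes rose, 19.4% fell). Sugt1, an HSP90 adaptor, was above t0 at 24 h by 1.60 in RWV cells and 1.70 in TCD cells, and Unc45a, a myosin chaperone that binds HSP90, by 1.03 in RWV cells and 0.83 in TCD cells (the second below 0 after centring). Of the HSP40 list, 4 of 9 rose and 1 fell in RWV cells, and 5 rose and 2 fell in TCD cells, against the same shares of all genes. Dnajb6, which holds back aggregating proteins, was 1.93 above t0 in RWV cells and 2.64 above in TCD cells at 24 h, while Dnaja1 was at -1.37 in RWV cells and -2.11 in TCD cells, both called lower.

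Of the BAG proteins and HSP70 adaptors, 5 of 8 rose and 1 fell between 4 h and 24 h in RWV cells (26.1% of all genes rose, 14.9% fell). In TCD cells 4 rose and none fell (35.8% of all genes rose, 19.4% fell). Bag2, which blocks the ubiquitin ligase Stub1, had the largest change of its list, 3.53 above t0 in RWV cells and 4.64 above in TCD cells at 24 h. Among the other HSP70 and HSP110 genes, Hspa4l was 2.69 above t0 in RWV cells and 1.70 above in TCD cells at 24 h, and Hspa4 was 1.61 above in RWV cells and 2.43 above in TCD cells. Of the other small heat shock protein genes, 3 of 6 were measured, and Hspb8, a partner of Bag3, was above t0 at 4 h by 2.83 in RWV cells and 2.37 in TCD cells.

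Between vessels at 24 h, 5 of 52 genes were higher in RWV than in TCD cells and 5 lower, near the shares over all genes (8.27% higher, 6.71% lower). The higher ones were Hsf2, Hsbp1, the HSP90 activator Ahsa1 (0.70), the HSP70 nucleotide exchange factor Hspbp1 (0.40) and Trap1 (0.43). The lower ones were Hspa2 (-1.93), Hspa4 (-0.82), Bag2 (-1.12), the small heat shock protein genes Cryab (-0.92) and Hspb6 (-0.80). At 4 h, Cdc37, which brings kinases to HSP90, was 0.85 higher in RWV cells and Bag2 was at -2.02, the only calls among the 52. The lists were written with results of these data known, and their counts are descriptions.

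**Figure D4:**
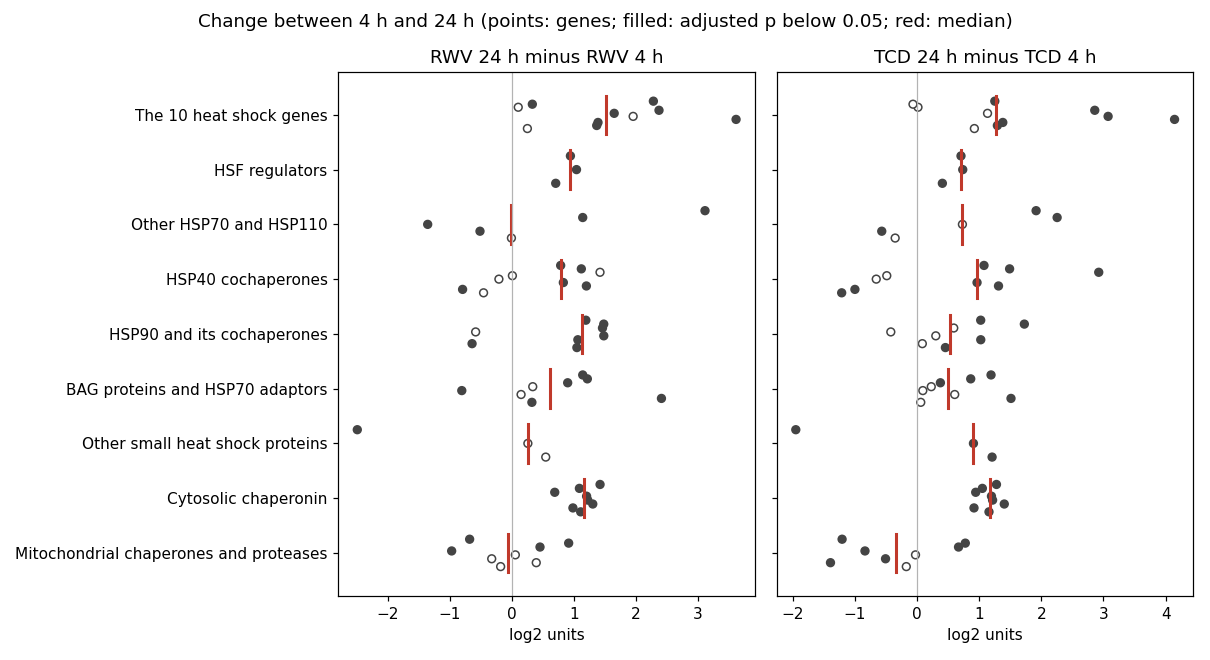
Change between 4 h and 24 h in RWV cells (left) and TCD cells (right) for the 10 heat shock genes and 8 lists of related genes (points, genes; filled, adjusted p below 0.05; red, median). The 10 genes reach 3.61 in RWV cells and 4.14 in TCD cells, and the cytosolic chaperonin forms a tight group around 1.15 in RWV cells and 1.18 in TCD cells; after centring on reference genes the points of a panel move by -0.37 (RWV) or -0.98 (TCD).

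The 10 profiles were also compared with each other over the 15 arrays, which fall into 5 groups, so that a correlation mainly describes the group means. Against the mean of the other members' standardised profiles, Pearson's r was 0.861 for Hsp90aa1, 0.855 for Hsph1, 0.839 for Hspa1a, 0.781 for Hspa1b, 0.752 for Dnajb1 and 0.751 for Hspb1. It was lower for Hspd1 (0.515), Hspe1 (0.506), Bag3 (0.485) and Hspa8 (0.479). Outside the lists, the genes closest to the mean profile of the 10 were Fam98a (r = 0.962), Ubfd1 (0.956), Taf6l (0.951), Ecd (0.945) and Rce1 (0.941), each over 15 arrays. Rce1 averaged 2.38 in RWV 24 h cells, 1.70 in TCD 24 h cells, -0.51 in RWV 4 h cells and -1.28 in TCD 4 h cells, and 0.14 at t0.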

How the data were processed

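The deposited values were log2 signals made by the authors with GCRMA, per the submitters' processing notes, which give no version. GCRMA removes background with a probe-sequence model, then normalises arrays and combines the probes of a set. RNA was extracted with RNeasy and labelled with MessageAmp II, per the labels' protocols. In all 45101 probe sets the t0 median was 0 (tolerance 1e-06), so it had been subtracted, and the log base is taken from GCRMA. Whether that subtraction hides a batch cannot be read from the values.

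After removing 64 controls, a probe set was background where its SD was below 0.5 and it correlated above 0.8 with each array's median over the 20% of probe sets with least variance. This left 25429 probe sets. Of 45037, 34945 carried 1 symbol, 932 several and 9160 none; 34741 were matched by Entrez number.

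Group differences came from limma 3.58.1 (lmFit, contrasts.fit, eBayes) in R 4.3.3 with data.table (version 1.17.8), with 15 arrays in 1 fit and 10 residual degrees of freedom. Benjamini-Hochberg adjustment ran over all 25429 within each of 9 comparisons. Tables and figures used Python 3.11.15, pandas 2.3.3, numpy 2.4.6 and matplotlib 3.10.9. On simulated data for RWV 24 h against TCD 24 h over 25429 probe sets, 63% of changes of 1 and 89% of changes of 2 were called, with 14 false calls. The noise was drawn independently for each array and the changed probe sets were picked at random. These rates therefore need not hold for the heat shock genes, some of which spread more, or for linked arrays. The leading probe set of a gene had the largest SD.

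The 10 genes were always named. Each chaperone list gave up to 3 called genes each way with the largest 24 h vessel difference and up to 2 each way at 4 h and against t0, plus Hsf1 and Hsf2. The closest 5 genes by correlation were named. Members and lists were chosen with earlier results of these data known.

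The labels do not say what replicate numbers mark. After subtracting group means, each array was compared with the arrays of the other groups only. For 15 of 15 arrays the best correlated one had the same number. Correlations between arrays of the same number ran from 0.027 to 0.486. They were largest between RWV 4 h and TCD 4 h (0.33, 0.47 and 0.49). All 3 correlations exceeded 0.1 in 5 of 10 group pairs. The block was kept as an alternative, and the main fit ignores this link between arrays.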

Additional observations from a re-analysis of the deposited data

Results flagged for a closer look

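By their leading probe sets, Hspa8 and Hspe1 stood on opposite sides of the t0 mean at 24 h, with every RWV array above it and every TCD array below it. The RWV minus TCD difference was 1.97 for Hspa8 by its leading probe set, which its other 3 probe sets did not share, and 0.37 for Hspe1. By the other probe set of Hspe1 both vessels lay below the t0 mean of -0.06, at -0.09 in RWV cells and -0.44 in TCD cells. Against t0 at 24 h, limma called neither gene in either vessel by its leading probe set with all arrays. Only the RWV to TCD differences were called, and opposite movement from t0 was not tested as such.

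Among the related genes, 3 differed between vessels by another amount at 24 h than at 4 h, by the interaction term of the limma fit. For Trap1 the change of the difference was 0.52 (adjusted p = 0.042). It averaged -0.84 in RWV and -1.27 in TCD cells at 24 h, and -0.16 in RWV and -0.07 in TCD cells at 4 h. For Hspa2, a testis-rich HSP70, it was -2.09 (adjusted p = 0.0184), with averages of -1.94 in RWV and -0.01 in TCD cells at 24 h, and -0.58 in RWV and -0.74 in TCD cells at 4 h. For Hspa4, an HSP110 family gene, it was -1.11 (adjusted p = 0.0309), with averages of 1.64 in RWV and 2.46 in TCD cells at 24 h, and 0.50 in RWV and 0.21 in TCD cells at 4 h.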

How the results depend on the processing

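Each comparison was repeated under 10 other settings and with each of the 15 arrays left out. Of 2232 repeats of a gene's change, 2094 kept their call or stayed uncalled (53 of these changed sign uncalled), 68 lost a call, 64 gained one and 6 reversed. Counts of called genes, with 1 array left out, ran from 0 to 2 for RWV against TCD at 4 h, 0 to 3 at 24 h, 0 to 0 for the interaction, 0 to 3 for RWV 4 h and 1 to 2 for TCD 4 h against t0, 5 to 6 for RWV 24 h and 4 to 6 for TCD 24 h against t0, 6 to 8 for RWV 24 h against RWV 4 h and 5 to 8 for TCD 24 h against TCD 4 h. For RWV against TCD at 4 h (1 called), the count was 3 without the background filter and 0 in a fit of only the groups compared, with the replicate block or centred. Over all 12423 genes, 658 were called higher and 82 lower as reported, and 1496 and 596 without the filter. With only the groups compared 13 of all genes were higher and 1 lower, and centred 350 and 116. Calls over all genes were not counted with the replicate block, array weights or averaged probe sets. At 24 h (2 called), the member count was 1 without the filter, 1 with probe sets averaged per gene and 1 with Hspa8 by its probe set of second largest SD (chosen after seeing the data). It was 4 with array weights and 7 centred. Without the filter 810 of all genes were higher and 669 lower, against 1027 and 833 as reported. Centred, 6303 were higher and 431 lower. The interaction (0 called) gave 1 in a fit of only the groups compared (Hsph1) and 3 centred. Of all genes, 593 were higher and 911 lower as reported, and 602 and 952 with only the groups compared. Centred, 5414 of all genes were higher and 443 lower. For RWV 4 h against t0 (1 called), the member count was 0 without the filter or with only the groups compared. It was 2 with the replicate block, with the mean of probe sets or with the other Hspa8 probe set, and 4 centred. Of all genes, 1852 were higher and 1764 lower as reported, and 1656 and 1520 without the filter. With only the groups compared 1544 were higher and 1417 lower, and centred 1371 and 6375. For TCD 4 h against t0 (2 called), the member count was 0 with only the groups compared, 1 with array weights and 4 centred. Of all genes, 1157 were higher and 1918 lower as reported. With only the groups compared 662 were higher and 749 lower, and centred 905 and 3664. Centring turned Hspe1 to -0.52 (RWV 24 h against t0) and -0.041 (RWV 24 h against RWV 4 h), and Hspd1 to -0.69 (RWV 24 h against t0) and -0.96 (TCD 24 h against TCD 4 h), since it shifts all genes alike. The other Hspa8 probe set turned RWV against TCD at 24 h to -0.27 and TCD 24 h against t0 to 0.57. The replicate block changed no call other than the losses and gains named for Hspa1b, Hspb1 and Hspa8, the last also in RWV 24 h against t0 (adjusted p = 0.0255). The other causes were not tested. Signal over background is not held in the values, so its limit is not known.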
